A study of Mus musculus with 22 samples.

Results

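The genes described here are 10 scaffold genes of the excitatory synapse: Shank1, Shank2 and Shank3, Dlg2, Dlg3 and Dlg4, and Dlgap1, Dlgap2, Dlgap3 and Dlgap4. They were taken by symbol, and all 10 had a row among the 29848 genes of the deposited tables. RNA was measured in mouse hippocampal CA1, dissected into dendrites and soma (cell bodies). The animals were Camk2a-tTA/tetO-EGFP-L10a double transgenics on a C57BL/6 background, in which the Camk2a promoter, active in excitatory forebrain neurons, switches on a ribosomal protein joined to a green fluorescent protein. An antibody to that protein pulled down the tagged ribosomes with their mRNA (the immunoprecipitate), and the supernatant held what the antibody did not bind. That can include RNA on ribosomes without the tag. All groups carried both transgenes. The labels used here give no age, and they do not say whether a library came from 1 animal or from several, so that p-values measure the spread between these samples, which may be partly technical.

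There were 11 libraries. Each was sequenced both as pairs and as single ends, and its runs together counted as 1 replicate. The 8 immunoprecipitates were 2 each from fear conditioned dendrites, home cage dendrites, fear conditioned soma and home cage soma. Fear conditioning trains an animal to link a place or a cue with a shock. The 3 supernatants came from fear conditioned dendrites (replicate 2), home cage dendrites (replicate 2) and fear conditioned soma (replicate 2), with no supernatant from home cage soma analysed here. The study asked which mRNAs are on ribosomes in dendrites and soma, and whether fear conditioning changes them.

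Proteins of the Dlg family are membrane-associated guanylate kinases that sit just under the postsynaptic membrane and hold glutamate receptors and adhesion proteins with their PDZ domains. Dlgap proteins bind the guanylate kinase domain of the Dlg proteins, and Shank proteins bind the Dlgap proteins from below and connect them through Homer and cortactin to receptors and actin in the spine. The mRNAs of several of these genes, Dlg4, Shank1 and Dlgap3 among them, are known from earlier work to be carried into dendrites. Synthesis of the Dlg4 protein, PSD-95, from dendritic mRNA is known to be held down by the microRNA miR-125a.

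Because of that known link, the 3′ UTRs of the members were read for matches to miR-125a-5p in the GENCODE transcripts of the mouse build GRCm38. The transcript of each gene was chosen by the annotation's mark as principal, then by the longest coding sequence, then by the longest 3′ UTR. The 3′ UTR read is therefore not always the longest of its gene. The sequences below are 5′ to 3′ on the transcript strand. Capitals mark bases 2 to 8 of the microRNA (its seed) in the first line, and the letters that pair with it in the others.
mmu-miR-125a-5p: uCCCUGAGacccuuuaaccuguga
Dlg4, UTR bases 170 to 192: atccctgcaccccagaTCAGGGc
Dlg4, UTR bases 332 to 354: acacacattccagaagTCAGGGc
Dlg4, UTR bases 711 to 733: gtgggggggcaaagggTCAGGGg
Shank1, UTR bases 82 to 104: tctctcccctctcccCTCAGGGg
Shank2, UTR bases 1024 to 1046: ccaagaaaggtggaaCTCAGGGg
Shank3, UTR bases 666 to 688: accctttaggtgctgCTCAGGGg
The 7 letters CTCAGGG were in the 3′ UTRs of 3 of the 10 members, Shank1, Shank2 and Shank3, and in 12.2% of the 20968 genes with a 3′ UTR. The 6 letters TCAGGG, which are part of the longer motif, were in 6 of 10 members, the same 3 with Dlg4, Dlg2 and Dlgap1, and in 29.4% of all genes. Only the transcript strand was searched. The member UTRs ran from 400 to 4630 bases against a median of 849 bases over all genes, and 7 of the 10 were longer than that median, so a match by letters alone is more frequent in them. The shorter motif was added after the longer one had been seen to be missing from Dlg4. A match of letters is a description and shows neither binding nor an effect.

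The files give FPKM, fragments per kilobase of transcript and per M mapped, for 2 parts of each transcript. One part, called the coding part below, holds the coding sequence with the 5′ UTR before it and the first bases of the 3′ UTR after it, and the other is the rest of the 3′ UTR. Values below are FPKM of the coding part in the paired-end run, divided by a scaling factor per library, unless another part or run is named. Because FPKM is per length, levels of different genes can be set side by side, but only roughly. The RNA was amplified and some genes share bases with other rows. Libraries are compared by the scaled values.

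Several facts of the whole series bear on every value. The spacing of low FPKM gave depths of 5.65 to 35.4 M mapped fragments for paired-end and 0.524 to 10.7 M mapped reads for single-end sequencing. Taken over 3451 genes (genes are no independent replicates), the Pearson correlation of log2(FPKM + 1) ran from 0.173 to 0.352 for replicate immunoprecipitates of a group, 0.088 to 0.344 between other immunoprecipitates, and 0.407 to 0.812 between the paired-end and single-end run of the same library. The fear conditioned dendrite immunoprecipitate 1 stood apart: its r with the supernatant of home cage dendrites was 0.659 paired-end and 0.461 single-end, and results are given without it where it matters. The fear conditioned immunoprecipitates had 6147 to 12205 genes above 0 at 18.6 to 29.9 M fragments, against 3220 to 5006 genes at 5.65 to 17.7 M in the home cage ones, so that neither range overlapped. Exact zeros are given as listed at 0. Dissected tissue is a mixture, so fewer cells of a type and less RNA per cell cannot be told apart.

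The levels of the members differed widely. In the dendrite immunoprecipitates the median was highest for Shank1, at 34.3, followed by Dlg4, at 30.8, and in the soma immunoprecipitates for Dlgap1, at 13.1, followed by Shank1, at 10.5. Neighbours in these orders overlapped across libraries. The lowest members were Dlg3, from 0 to 3.61 over the 8 immunoprecipitates, and Shank3, from 0 to 3.14.

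**Figure D1:**
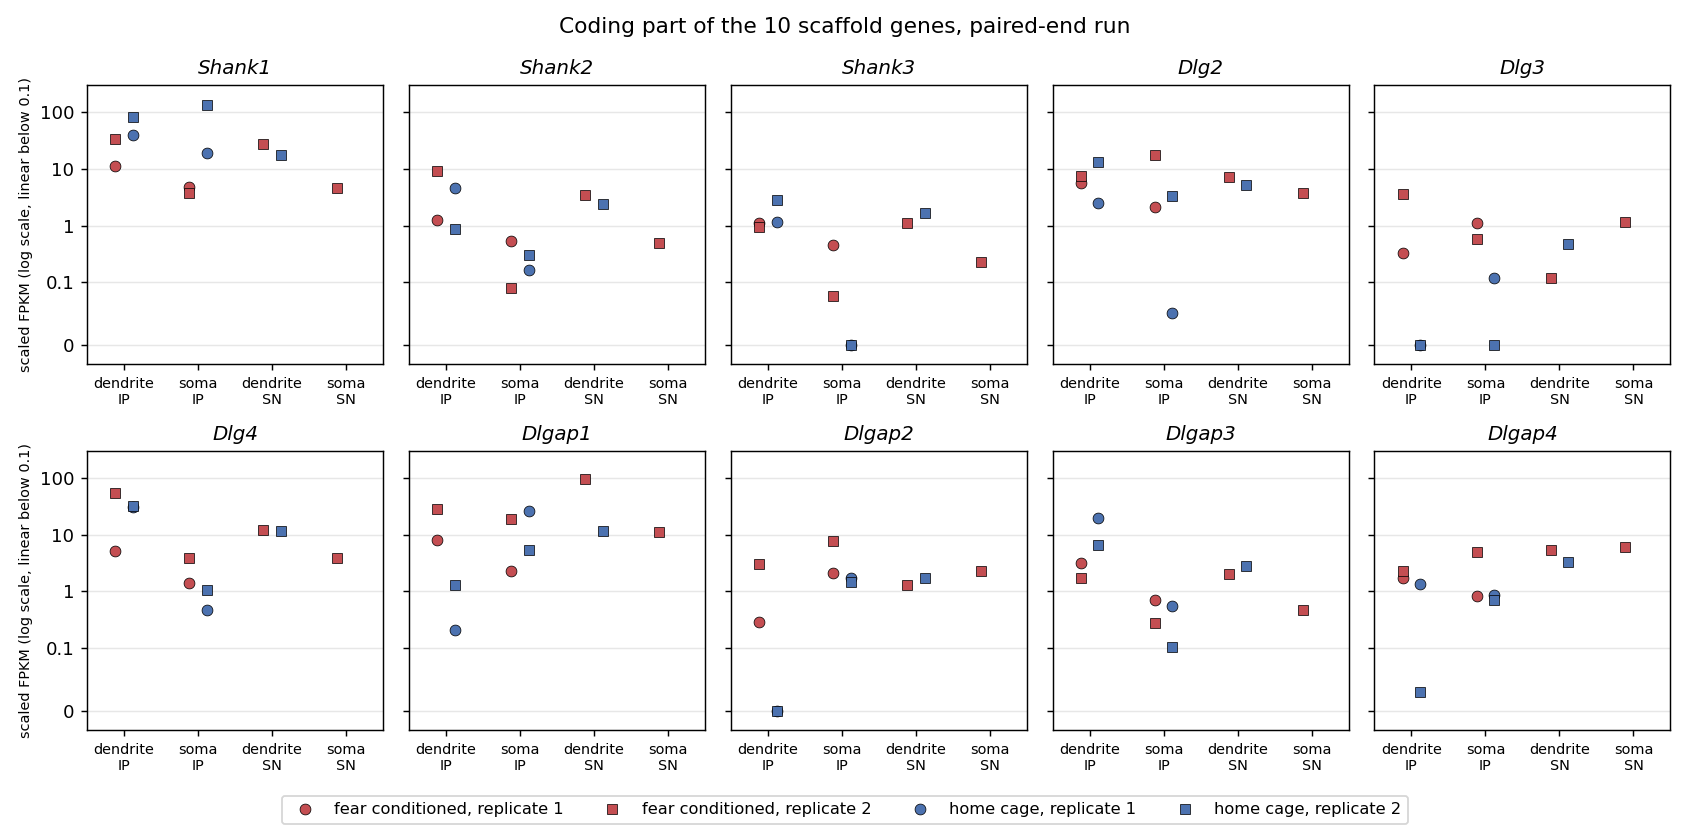
Scaled FPKM of the coding part of each member (y axis, log scale that is linear below 0.1) in dendrite and soma immunoprecipitates (IP) and supernatants (SN), scaled over all 11 libraries. Each point is 1 library, red for fear conditioned and blue for home cage, and circles and squares are replicates 1 and 2. The dendrite immunoprecipitates lie above the soma ones for Shank2, Shank3, Dlg4 and Dlgap3, while Shank1 and Dlgap1 overlap over more than an order of magnitude.

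The first comparison set dendrite against soma immunoprecipitates. Shank2, Shank3, Dlg4 and Dlgap3 had every dendrite value above every soma value, while Dlg3, Dlgap1 and Dlgap2 had medians that were lower in dendrites. By the log2 difference used below, Dlg3 was slightly positive (0.13), and Dlgap1, Dlgap2 and Dlgap4 were negative. No member passed the test over all genes, and the separation of Shank2, Shank3, Dlg4 and Dlgap3 did not recur in the single-end run. Of the 8 members whose scaled FPKM averaged 1 or more, limma's moderated test with Benjamini-Hochberg adjustment called 0, as it called 0% of all 3081 genes tested. Before adjustment 149 genes had p under 0.05, of which 60 were higher in dendrites, and Dlg4 and Dlgap3 were the 2 members among them.

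Dlg4, which encodes PSD-95, the most abundant Dlg protein of the excitatory synapse, lies on chromosome 11 of mm9 at 69832107 to 69859033 (plus strand). Its scaled FPKM was 4.91 and 53.8 in fear conditioned dendrites and 26.6 and 34.9 in home cage dendrites, against 1.56 and 4.84 in fear conditioned soma and 0.395 and 0.842 in home cage soma. The lowest dendrite value and the highest soma value nearly touch, and both come from fear conditioned animals. The log2 difference, dendrite minus soma on the scale log2(scaled FPKM + 1), was 3.26 (SE 1.11, 95% interval 0.86 to 5.66), with an unadjusted p of 0.0116 and a limma adjusted p of 0.653. The paired-end values correspond to about 590, 4529, 400 and 1832 fragments in the same dendrite libraries and to about 98, 610, 8 and 8 fragments in the soma libraries. Without the fear conditioned dendrite immunoprecipitate 1 the log2 difference was 3.98 (limma adjusted p = 0.250), and without the fear conditioned dendrite immunoprecipitate 2 it was 2.41 (limma adjusted p = 0.785).

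Dlg2 encodes PSD-93, the closest relative of PSD-95 at synapses, and spans chromosome 7 from 98239296 to 99597599. It had 5.41 and 7.42 in fear conditioned dendrites and 2.19 and 14.2 in home cage dendrites, against 2.32 and 21.4 in fear conditioned soma and 0.0440 and 2.62 in home cage soma. The groups overlapped, with the highest value of all in a soma library, and the log2 difference was 0.80 (SE 1.10). Dlg3 encodes SAP102, a Dlg protein known to be prominent early in development, on chromosome X from 97963062 to 98013749. Its mean was under the minimum for testing. It had 0.319 and 3.61 in fear conditioned dendrites and was listed at 0 in home cage dendrites 1 and 2, against 1.22 and 0.719 in fear conditioned soma and 0.0989 and 0 in home cage soma.

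Dlgap3, also known as SAPAP3, links PSD-95 to Shank proteins, and its loss in mice is known to cause excessive grooming. It lies on chromosome 4 from 126846515 to 126914266. It had 3.00 and 1.70 in fear conditioned dendrites and 17.4 and 7.34 in home cage dendrites, against 0.780 and 0.333 in fear conditioned soma and 0.465 and 0.0820 in home cage soma. Every dendrite library was above every soma library, and as for Dlg4 the wider gap was among home cage animals. The log2 difference was 2.20 (SE 0.85, 95% interval 0.36 to 4.03), with an unadjusted p of 0.0224 and a limma adjusted p of 0.653. Its soma values rest on about 65, 56, 12 and 1 fragments.

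The other Dlgap genes did not follow Dlgap3. Dlgap1 (chromosome 17, 70318708 to 71170753), the founding SAPAP, had 7.62 and 28.1 in fear conditioned dendrites and 0.186 and 1.43 in home cage dendrites, against 2.53 and 23.5 in fear conditioned soma and 22.0 and 4.17 in home cage soma. Its dendrite values spread over more than 100-fold between behaviours and enclosed the soma values, with a log2 difference of -0.96 (SE 1.14). Dlgap2 (chromosome 8, 14095875 to 14847686) had 0.280 and 3.10 in fear conditioned dendrites and was listed at 0 in home cage dendrites 1 and 2, against 2.29 and 9.38 in fear conditioned soma and 1.47 and 1.14 in home cage soma. The highest value was that of the fear conditioned soma 2 library, the groups overlapped, and the log2 difference was -1.28 (SE 0.84). Dlgap4 (chromosome 2, 156439441 to 156590099) had 1.62 and 2.29 in fear conditioned dendrites and 1.20 and 0.0329 in home cage dendrites, against 0.896 and 6.08 in fear conditioned soma and 0.724 and 0.559 in home cage soma. Its log2 difference of -0.22 (SE 0.82) turned positive with FPKM as deposited (0.12), in the single-end run (0.02) and without the home cage dendrite immunoprecipitate 2 (0.09). In the authors' annotation 653 bases of the Dlgap1 coding part are shared with mKIAA4162 on the same strand and 212 bases of Dlgap2 with a row named Sapap2, an older name of that gene, so their FPKM may be split between rows.

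Among the Shank genes, Shank1 had the highest values. Shank1 (chromosome 7, 51565634 to 51613723) encodes a large scaffold whose mRNA is a known dendritic transcript. It had 10.8 and 34.2 in fear conditioned dendrites and 34.4 and 90.2 in home cage dendrites, against 5.14 and 4.66 in fear conditioned soma and 15.8 and 106 in home cage soma. The dendrite and soma groups overlapped because of the home cage soma libraries, and the log2 difference was 1.11 (SE 1.16, 95% interval -1.39 to 3.60). Leaving out the home cage soma immunoprecipitate 2, the library with the value of 106, gave 1.84, and leaving out the home cage soma immunoprecipitate 1 gave 0.41.

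Shank2 (chromosome 7, 151361425 to 151608580) and Shank3 (chromosome 15, 89330288 to 89390691), both known as autism risk genes in humans, were low. Shank2 had 1.22 and 9.08 in fear conditioned dendrites and 4.10 and 0.949 in home cage dendrites, against 0.574 and 0.111 in fear conditioned soma and 0.140 and 0.236 in home cage soma. Shank3 had 1.06 and 0.962 in fear conditioned dendrites and 1.02 and 3.14 in home cage dendrites, against 0.493 and 0.0955 in fear conditioned soma, and was listed at 0 in both home cage soma libraries. Neither gene overlapped between dendrite and soma. The log2 difference was 1.62 for Shank2 (SE 0.83, unadjusted p 0.0732, limma adjusted p = 0.653), and 1.09 for Shank3, whose mean was under the minimum for the test across genes. The soma libraries held about 61, 24, 5 and 4 fragments of Shank2 and about 45, 17, 0 and 0 of Shank3.

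Each member also had a two-sided exact permutation test over the 8 libraries, not adjusted for the 10 members tested. Shank2, Shank3, Dlg4 and Dlgap3 each had an exact permutation p of 0.0286, the smallest that 4 against 4 allows. The other 6 members had an exact permutation p of 0.114 to 0.886. Without the fear conditioned dendrite immunoprecipitate 1 these 4 members were still separated, with exact permutation p = 0.0286 each. Without the fear conditioned dendrite immunoprecipitate 2 Dlg4 overlapped between groups (exact permutation p = 0.0857). Without the home cage dendrite immunoprecipitate 2 Shank3 had an exact permutation p of 0.0571, and without any 1 soma library only Shank3 kept 0.0286, although all 4 members still had every dendrite value above every soma value. Among the 3081 genes above the minimum, 1.69% were separated in the same direction. Shank2 and Dlgap3 reached that minimum through their dendrite values and Shank3 did not reach it, so the members' count is not read against this share. With no minimum, 7 of the 10 members had a positive log2 difference and their median was 0.95, beside 46.3% and a median of -0.01 for the 15213 genes above 0 in any immunoprecipitate. The median of the 3081 genes above the minimum was -0.33. With FPKM as deposited the median of all genes moved by 0.45 to 0.12. Relative to the median of all genes, Dlg4 stood at 3.59 scaled and 3.61 as deposited, Dlgap3 at 2.52 and 2.45, and Dlgap1 at -0.63 and -0.30.

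**Figure D2:**
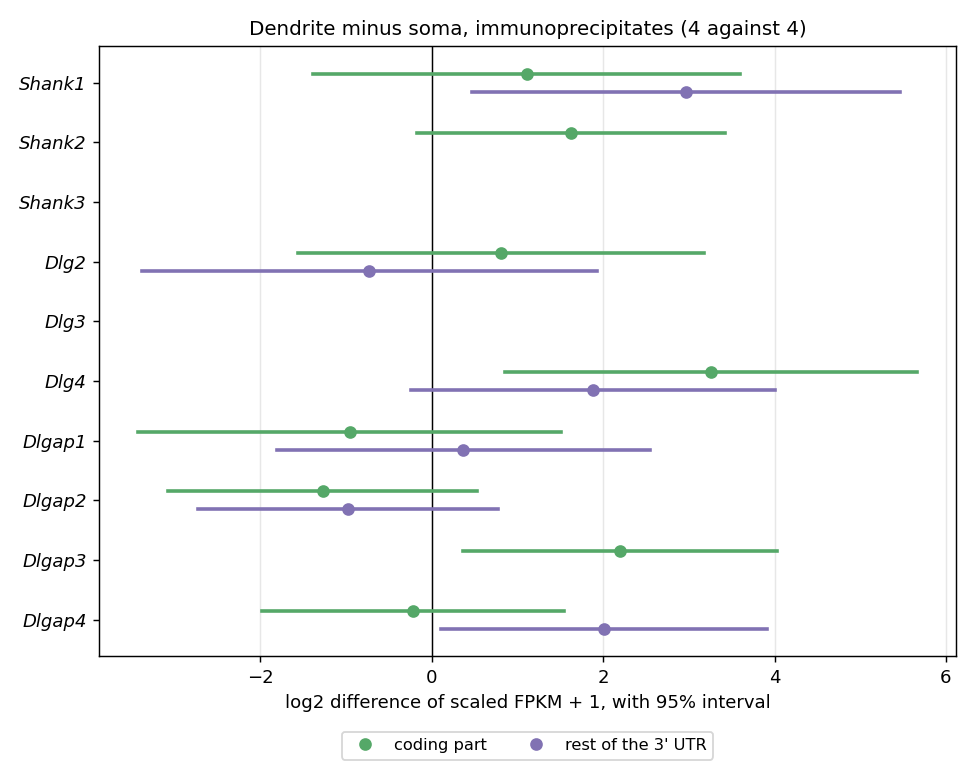
Log2 difference, dendrite minus soma, in the immunoprecipitates for each tested member (x axis, scale log2(scaled FPKM + 1)), green for the coding part and purple for the rest of the 3′ UTR. Points are estimates and bars are 95% intervals from limma, 4 libraries against 4. The bars of Dlg4 and Dlgap3 in the coding part and of Shank1 and Dlgap4 in the rest of the 3′ UTR lie above 0 before adjustment, and members under the expression minimum have no bar.

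The rest of the 3′ UTR was measured as a transcript part of its own, and of the 6 members above the minimum Shank1, Dlg4 and Dlgap2 had the sign of their coding part while Dlg2, Dlgap1 and Dlgap4 had the other. Of these 6 members 0 passed the test, as did 0% of the 2224 genes tested (116 genes had p under 0.05 before adjustment, 31 being higher in dendrites). Shank1 had 29.5 and 109 in fear conditioned dendrites and 75.8 and 102 in home cage dendrites, against 30.8 and 12.9 in fear conditioned soma and 1.96 and 4.44 in home cage soma. Here the home cage soma library that was highest in the coding part was among the lowest, and dendrite and soma overlapped by a single pair of libraries. The log2 difference of Shank1 was 2.97 (SE 1.17, 95% interval 0.47 to 5.47, unadjusted p 0.0231, limma adjusted p = 0.615), on an annotated 842 bases. For Dlgap4 it was 2.01 (SE 0.89, unadjusted p 0.0397, limma adjusted p = 0.615), a sign opposite to that of its coding part. In the single-end run these differences were 0.71 for Shank1 (exact permutation p = 0.657) and 0.50 for Dlgap4 (exact permutation p = 0.8).

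The 3′ UTR part of Dlg4, 638 bases long, had 1.25 and 7.65 in fear conditioned dendrites and 14.6 and 1.95 in home cage dendrites, against 0.173 and 1.32 in fear conditioned soma and 0 and 0.775 in home cage soma. The fear conditioned soma 2 library exceeded the lowest dendrite library, and the log2 difference was 1.89 (SE 0.99, unadjusted p 0.0778). Dlgap1, Dlg2 and Dlgap2 had log2 differences of 0.37, -0.73 and -0.98. Of the members, only Shank3 had every dendrite value above every soma value in this part (exact permutation p = 0.0286), at 0.742 to 1.78 in dendrites and 0 to 0.358 in soma, and it was under the minimum for the test across genes. Among the 2224 genes tested, to which Shank3 does not belong, 1.03% were separated in this way.

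The single-end run repeats the same libraries at a lower depth, and it gave different values for most members. The labels do not say whether both runs used the same amplified material. For 10 of 11 libraries the paired-end run correlated best with the single-end run of its own library, and for the fear conditioned dendrite supernatant 2 it did so with another (0.666 against 0.659). Dlg4 had 1.65 and 47.0 in fear conditioned dendrites and 199 and 12.6 in home cage dendrites in that run, against 3.52 and 6.50 in fear conditioned soma and 1.15 and 0 in home cage soma. The fear conditioned dendrite immunoprecipitate 1 fell within the soma range, and the other 3 dendrite libraries were above it. Shank1 had 612 in the fear conditioned dendrite immunoprecipitate 2, against 34.2 for the same library in the paired-end run, which rest on about 6904 reads and 3507 fragments. In the home cage soma immunoprecipitate 2 it had 3.88 single-end and 106 paired-end. Shank3 had 6.95 and 0.204 in fear conditioned dendrites and 16.6 and 0.483 in home cage dendrites, against 0.110 to 0.461 in soma. Without overlap there were 0 members in the single-end run and 1, Shank3, with both runs averaged. The direction held for Shank2 (0.65), Shank3 (1.70), Dlg4 (3.05) and Dlgap3 (1.41) in the single-end run, with exact permutation p of 0.314 for Shank2 and 0.0857 for each of the others.

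**Figure D3:**
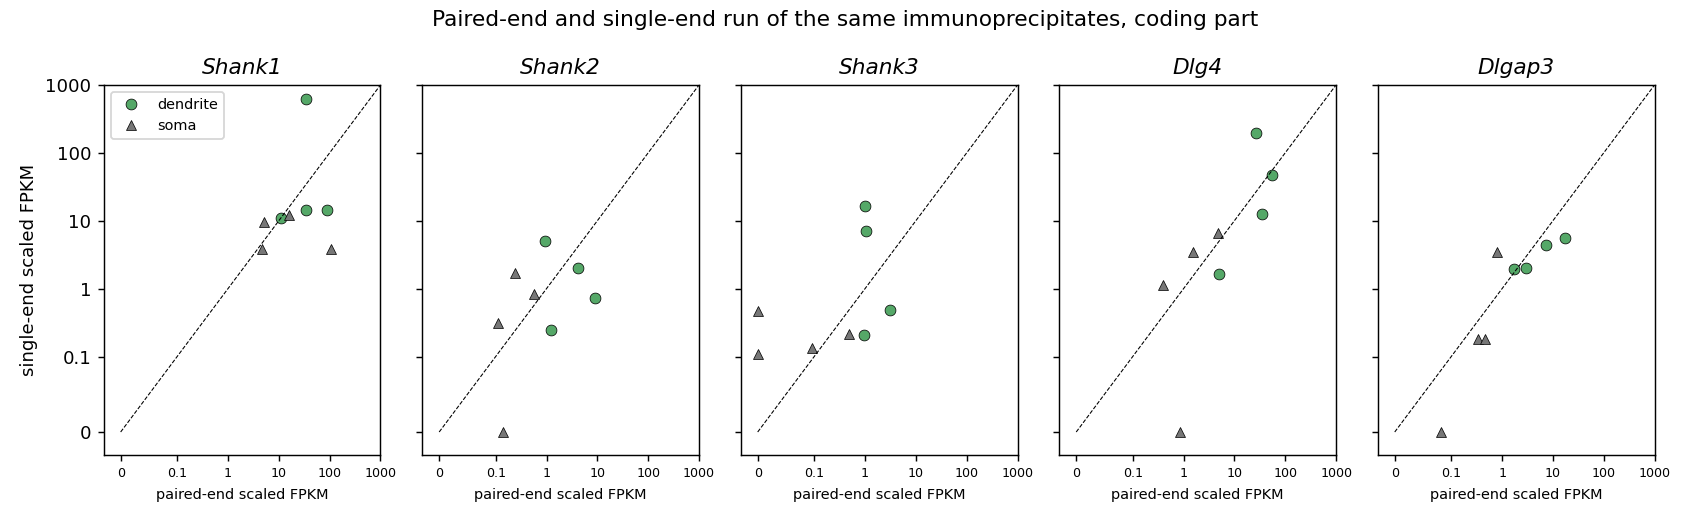
Scaled FPKM of the coding part in the paired-end run (x axis) and in the single-end run (y axis) of the same 8 immunoprecipitates, both on log scales that are linear below 0.1, with green circles for dendrite and grey triangles for soma libraries. The dashed line marks equal values. Points lie up to more than 10-fold from the line, as for Shank1 at 34.2 paired-end and 612 single-end.

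Camk2a and Ddn, which encode a kinase subunit and the spine protein dendrin and are textbook dendritic mRNAs, serve as a scale for these values. Camk2a (chromosome 18) had a log2 difference of 2.92 (SE 1.10) and Ddn (chromosome 15) of 2.57 (SE 1.09) in the coding part, so that Dlg4 at 3.26 and Dlgap3 at 2.20 lay on either side of them, within 1 SE. In a list of textbook dendritic mRNAs, Camk2a and Ddn among them, all 7 genes had a positive log2 difference with no minimum. Their median was 1.28, and 46.3% of all genes above 0 in any immunoprecipitate were positive. Of the 6 tested 0 passed. Ppp1r9b, the spine protein spinophilin, was at 3.23, Eef1a1, a translation elongation factor, at 1.28 and Mtap2 at 0.74 (SE 1.28).

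Lists of other postsynaptic genes were set beside the members. In a list of other adaptors of the postsynaptic density 6 of 20 genes had a positive log2 difference with no minimum, with a median of -0.30, and 0 of the 12 tested passed. Magi2, a membrane-associated guanylate kinase with inverted domain order, was at 1.13 and Sipa1l1, a spine GTPase activator, at 0.98, while Tanc2 was at -1.71 and Dynll2, a dynein light chain that binds the Dlgap proteins, at -0.89. In a list of postsynaptic receptors and adhesion proteins 1 of 14 genes was positive with no minimum, the adhesion protein Nlgn3 (mean 1.08 in dendrites against 0.451 in soma), and the median was -1.51. None of the 9 tested passed, and several of these, Grin2a, Grin2b, Gria3, Grm5, Nlgn1 and Lrrtm1, reached the minimum only through their soma values, so nothing is read from their sign. Among its 4 most abundant genes, the AMPA receptor subunits Gria2 and Gria1 were at -2.17 and -1.25, the metabotropic receptor Grm5 at -3.26 and the NMDA receptor subunit Grin1 at -1.64.

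Markers of astrocytes, whose fine processes fill the dendritic layer, were higher in the dendrite immunoprecipitates as well. With no minimum all 10 markers had a positive log2 difference, with a median of 2.79, beside 46.3% of all genes above 0 in any immunoprecipitate. Of the 8 tested 0 passed, and some of these reached the minimum only through their dendrite values. Their summed scaled FPKM was 168 to 277 in dendrite immunoprecipitates and 3.98 to 72.3 in soma immunoprecipitates, and in the dendrite supernatants it was 280 and 368, against 27.1 in the soma supernatant. Aqp4 and Gja1 were listed at 0 in the home cage dendrite immunoprecipitate 1, and Aqp4 in 3 of 4 soma immunoprecipitates. Of the markers of CA1 pyramidal cells 1 of 7 was positive with no minimum, with a median of -0.89. Among markers above 0 in any immunoprecipitate, 4 of 6 of oligodendrocytes and 5 of 6 of interneurons were positive. So were 3 of 4 of CA3 and dentate cells and 5 of 6 of microglia. Few markers of these other cells could be tested, and 0 passed. Several markers reached the minimum only through the side where they were high, so nothing is read from the sign of those tested. The part of astrocyte RNA in the differences of Dlg4, Dlgap3, Shank2 and Shank3 was not tested.

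The supernatants show whether the same order of dendrite and soma holds in RNA that was not pulled down. Over all 11 libraries Dlg4 was at 12.2 and 11.7 in the fear conditioned and home cage dendrite supernatants, against 3.89 in the soma supernatant. Shank1 was at 27.6 and 17.2 against 4.52, Shank2 at 3.43 and 2.38 against 0.501, and Dlgap3 at 2.01 and 2.76 against 0.466. Both dendrite supernatants were above the soma supernatant for 7 of 10 members, Shank1, Shank2, Shank3, Dlg2, Dlg4, Dlgap1 and Dlgap3, where 33% of the 3138 genes tested were. Shank3 was under the minimum for testing, so the members' count is not read against this share. None of the 8 tested members was called, as for 0% of the genes tested (41 at an unadjusted p under 0.05); the log2 difference was 1.45 for Dlg4 (SE 1.79) and highest for Dlgap1 at 2.32 (SE 2.09). The soma supernatant is a single library.

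Whether the gap between dendrite and soma was wider in the immunoprecipitates than in the supernatants was tested as a difference of differences. It was 1.85 for Dlg4 (SE 2.05, 95% interval -2.54 to 6.25) and 1.41 for Dlgap3 (SE 1.59), and it ran lowest for Dlgap1 at -3.32 (SE 2.39). None of the members was called and 0% of all genes were (18 genes at an unadjusted p under 0.05), and the intervals span changes in either direction.

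The immunoprecipitates were also set against the supernatants of the same location. In dendrites Dlg4 was at 5.14 and 53.6 in fear conditioned and 30.3 and 31.8 in home cage immunoprecipitates, against 12.2 and 11.7 in the supernatants, a log2 difference of 0.90 (SE 1.23). Dlgap1 was at 7.98 and 28.0 in fear conditioned and 0.212 and 1.30 in home cage immunoprecipitates, against 95.4 in the fear conditioned and 11.9 in the home cage supernatant. Within each behaviour both immunoprecipitates lay below the supernatant, and its log2 difference of -2.76 (SE 1.43, unadjusted p 0.0731) was the lowest of the members, while that of Dlgap3, at 0.95 (SE 0.95), was the highest. The test called 2 genes of 3138 (0.0637%), both lower in the immunoprecipitates and neither a member. In soma the log2 differences ran from -1.13 for Dlgap4 (SE 1.23) to 0.69 for Shank1 (SE 1.83), with -0.95 for Dlg4 (SE 1.65), and 0% of genes were called (33 at an unadjusted p under 0.05).

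The second question of the study was whether fear conditioning changed what was on ribosomes. No member passed in dendrites or in soma, with 2 libraries against 2. In dendrites the largest difference was that of Dlgap1, at 7.62 and 28.1 in fear conditioned animals against 0.186 and 1.43 in home cage animals, a log2 difference of 3.22 (SE 1.62, 95% interval -0.26 to 6.71, unadjusted p 0.0672, limma adjusted p = 0.961). In the rest of its 3′ UTR Dlgap1 ran the other way, at 2.46 and 4.37 in fear conditioned dendrites against 4.69 and 6.17 in home cage dendrites, a log2 difference of -0.57. Dlgap3 lay at the other end, at 3.00 and 1.70 against 17.4 and 7.34, a log2 difference of -1.91 (SE 1.20). Dlg4 overlapped between behaviours, with -0.81 (SE 1.57), and without the fear conditioned dendrite immunoprecipitate 1 its sign turned to 0.80.

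Counted by library, both fear conditioned dendrite values were above both home cage values for 4 of 10 members, Dlg3, Dlgap1, Dlgap2 and Dlgap4, where 24.6% of genes tested were. The reverse held for Shank1 and Dlgap3, as for 8.41% of genes tested, and for Shank1 by a narrow gap, 34.2 against 34.4. Dlg3 was under the minimum for testing, so the count of 4 is not read against 24.6%. The number of genes above 0 and the depth also ran higher in all fear conditioned immunoprecipitates, neither home cage dendrite immunoprecipitate had a value above 0 for Dlg3 or Dlgap2, and the part of this in the counts was not tested. The test called 0% of the 3081 genes in dendrites (102 at an unadjusted p under 0.05).

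In soma the fear conditioned values were above both home cage values for 5 of 10 members, Shank3, Dlg3, Dlg4, Dlgap2 and Dlgap4, where 33.5% of genes tested were. Shank3 and Dlg3 were under the minimum for testing, so the members' count is not read against this share. Dlg4 was at 1.56 and 4.84 in fear conditioned soma against 0.395 and 0.842 in home cage soma, a log2 difference of 1.27 (SE 1.57). Dlg2 had the highest difference, 2.15 (SE 1.56), which rests on a value of 21.4 in the fear conditioned soma 2 library and turned to -0.11 in the single-end run and to -1.79 in the rest of the 3′ UTR. Both home cage values were above both fear conditioned ones for 1 member, Shank1, and for 7.85% of genes tested. Shank1 was at 5.14 and 4.66 in fear conditioned soma against 15.8 and 106 in home cage soma, a log2 difference of -2.85 (SE 1.64, 95% interval -6.37 to 0.68, limma adjusted p = 0.566). In the rest of the 3′ UTR Shank1 ran the other way, at 30.8 and 12.9 in fear conditioned soma against 1.96 and 4.44 in home cage soma, a log2 difference of 2.39. The test called 0% of all genes in soma (237 at an unadjusted p under 0.05).

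**Figure D4:**
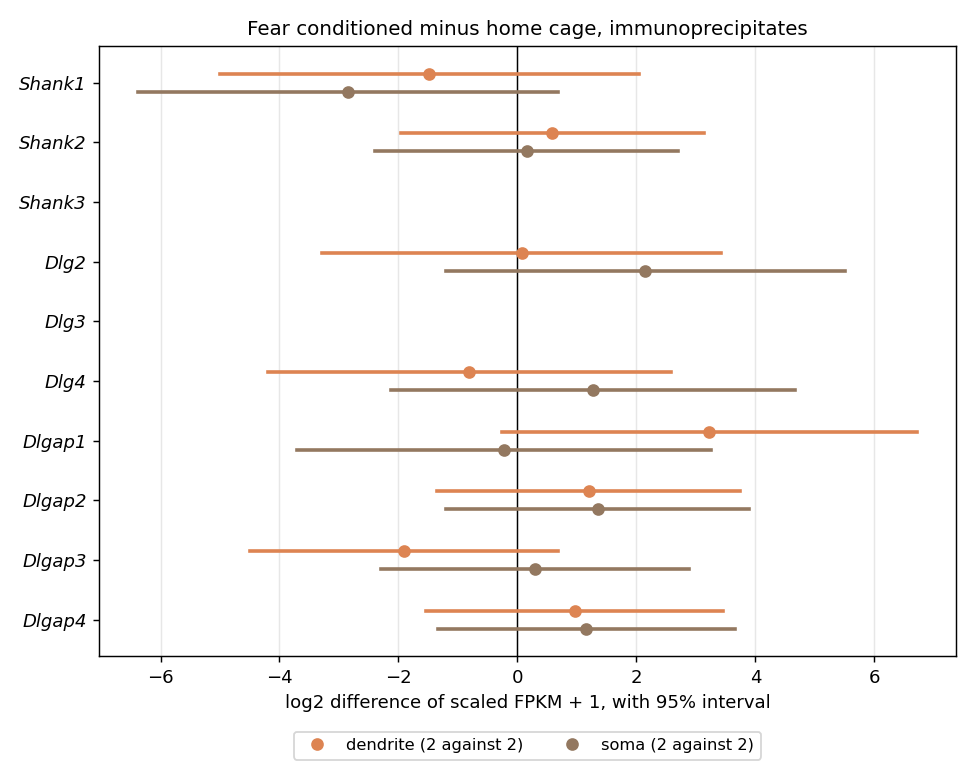
Log2 difference, fear conditioned minus home cage, for each tested member in the immunoprecipitates (x axis, scale log2(scaled FPKM + 1)), orange for dendrites and brown for soma, with 2 libraries against 2 each. Points are estimates and bars are 95% intervals from limma, and every bar crosses 0. Dlgap1 in dendrites (3.22) and Shank1 in soma (-2.85) lie farthest out.

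The effect of fear conditioning in dendrites minus that in soma ran from -2.20 for Dlgap3 (SE 1.70) to 3.45 for Dlgap1 (SE 2.29), with -2.08 for Dlg4 (SE 2.23). No member passed and 0% of genes did (107 at an unadjusted p under 0.05). The 95% interval for Dlg4 was -6.88 to 2.72, which leaves room for large changes in either direction.

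The genes whose values over the 11 paired-end libraries were most like those of Dlg4 and Shank1 were picked by Pearson's r of log2(scaled FPKM + 1), among 695 genes with a mean of at least 5 and a value above 0 in at least 6 libraries. For Dlg4 these were Arf3 (r 0.948), Ndrg2 (0.909), Nfix (0.909), Chd3 (0.904) and Ppp1r9b (0.900). For Shank1 they were Rps24 (0.874), Gstm1 (0.831), Rplp1 (0.827), Rpl12 (0.805) and Ezr (0.805). The libraries share location, depth and behaviour as sources of such likeness. In the single-end run none of these genes was among the 5 most like its gene, and the r of these 10 pairs ran there from -0.34 (Ezr with Shank1) to 0.80 (Ndrg2 with Dlg4). Ndrg2 is also in the list of astrocyte markers.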

How the data were processed

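RNA of tagged ribosomes and of the supernatant was amplified (Nugen Ovation RNA-Seq System V2) and made into Illumina TruSeq DNA libraries, per the labels' protocols. Tools named by the submitters' processing notes are STAR 2.1.1d, Cufflinks 2.0.2 and CASAVA 1.9, with the build mm9. The authors deposited FPKM per gene, library and transcript part, per the file headers; the sources used here do not give strand use. Coordinates are those of the authors' mm9 annotation.

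Libraries were brought to a common scale by median ratios to a geometric-mean library (870 genes above 0 in all 8 immunoprecipitates, 765 in all 11 libraries), in each table separately. The test used log2(scaled FPKM + 1) of genes whose scaled FPKM averaged 1 or more, a scale that understates the change of low genes, with limma 3.58.1 in R 4.3.3 (trended moderation, Benjamini-Hochberg adjustment over all genes tested, threshold 0.05, two-sided). The 8 immunoprecipitates were fitted as 4 groups (4 residual degrees of freedom) and all 11 libraries as location by fraction, adjusted for behaviour (6 degrees). Single members had an exact permutation test, not adjusted for the number of members. Depth came from the spacing of low FPKM of genes with 1 model of at least 1500 bases, of which 89.9 to 97.4% lay within 0.15 reads of 1, 2 or 3 reads; fragments per member are approximate, from the median model length, and cover counting only, since the RNA was amplified and no molecular identifiers are named. The test was also run on simulated, normally distributed values with added differences. Those values do not mimic the zeros of these libraries, and nothing is drawn from that run.

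All 10 members were named, with Camk2a and Ddn beside them, at most the 4 most abundant genes of each list and the 5 genes most like Dlg4 and Shank1. Beyond these, Grin2a, Grin2b, Gria3, Nlgn1, Nlgn3, Lrrtm1, Aqp4 and Gja1 were named after their values were seen. The members and lists were chosen with earlier results of these data known. Figures used matplotlib 3.10.9. Alternatives were pseudocounts of 0.1 and 5, no minimum and a minimum of 5, no scaling, another scaling set, the single-end run, both runs averaged, the rest of the 3′ UTR, robust moderation, a replicate block and leaving out each library.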

Additional observations from a re-analysis of the deposited data

Results flagged for a closer look

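In the paired-end run, 40 groups of 4 immunoprecipitates (each member, each transcript part, dendrite or soma) were checked for a library whose gap to its nearest neighbour exceeded 0.829 of the range of its group. Such a gap appeared in 13 of 40 groups, where chance gives about 1 in 20 for normally distributed values of 1 population. These are FPKM without a log, and each group holds both behaviours, so the share that chance gives here was not measured. In the coding part, Shank1 was at 106 in the home cage soma immunoprecipitate 2, where the next highest soma value was 15.8. Shank3 was at 3.14 in the home cage dendrite immunoprecipitate 2, where the next was 1.06. The fear conditioned soma immunoprecipitate 2 was far above the other soma libraries for Dlg2 (21.4), Dlgap2 (9.38) and Dlgap4 (6.08). The fear conditioned dendrite immunoprecipitate 2 stood above the other dendrite libraries for Dlg3 (3.61) and Dlgap2 (3.10).

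In the rest of the 3′ UTR, Dlg2 was at 44.3 in the home cage soma immunoprecipitate 1, where the next highest soma value was 3.69. Dlgap3 was at 6.68 in the fear conditioned dendrite immunoprecipitate 2 and at 0.336 in the fear conditioned soma immunoprecipitate 2. The fear conditioned soma immunoprecipitate 1 was highest of the soma libraries for Shank3 (0.358) and Dlgap4 (0.839), and the fear conditioned soma immunoprecipitate 2 for Dlg3 (0.290). The cause was not tested.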

How the results depend on the processing

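Of 33 member differences, 601 of 622 values under the alternatives kept their direction and 0 passed the adjusted test. These covered every tested member only between dendrite and soma immunoprecipitates, in both transcript parts. In the other comparisons they covered Dlg4 and the members with the highest and lowest difference (for the supernatants, Dlg4 and the highest). Large differences change sign less easily, so the share does not describe the members left out. The exceptions in direction lay in the rest of the 3′ UTR for Dlg2 (-0.73), Dlgap1 (0.37) and Dlgap4 (2.01) between dendrite and soma, for Dlgap1 (-0.57, dendrite) and for Shank1 (2.39) and Dlg2 (-1.79, soma) under fear conditioning, for Dlgap1 in the difference of those effects (-2.29), in immunoprecipitate minus supernatant (1.23), in the supernatants (-0.49) and in the difference of differences (0.87), and for Dlg4 in soma immunoprecipitate minus supernatant (0.26). In the single-end run they were Dlgap4 (0.022), Dlg2 under fear conditioning in soma (-0.11), Dlgap3 in dendrite immunoprecipitate minus supernatant (-0.38) and the 3′ UTR part of Dlgap1 (-0.66, and -0.14 with both runs averaged). With FPKM as deposited it was Dlgap4 (0.12). Leaving out 1 library at a time, Dlgap4 between dendrite and soma ran from -0.69 to 0.093, Dlg4 under fear conditioning in dendrites from -2.42 to 0.80, and Dlg2 in the 3′ UTR part from -1.63 to 0.23.

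Counts of genes called over all genes moved more. Dendrite against soma immunoprecipitates gave 1 gene as deposited, 1 in the single-end run and 1 with the replicate block, against 0. Fear conditioning in soma gave 1 as deposited and 0 to 144 leaving out 1 library (144 without fear conditioned soma 1, 128 without fear conditioned soma 2, 114 without home cage soma 2), and the difference of the fear conditioning effects gave 1 in the rest of the 3′ UTR. Dendrite immunoprecipitate minus supernatant, with 2, gave 1 at either pseudocount, 369 with no minimum, 1 at a minimum of 5, 10 in the single-end run, 1 with the replicate block, 0 with both runs averaged, 0 in the rest of the 3′ UTR and 0 to 2 leaving out 1 library. With no minimum the soma comparison gave 929, the supernatants 911 and the difference of differences 735, and in the single-end run these gave 10, 7 and 5; the soma comparison gave 1 in the rest of the 3′ UTR. Dendrite against soma in the rest of the 3′ UTR gave 4 at a pseudocount of 0.1, 5 at a minimum of 5 and 0 to 138 leaving out 1 library (112, 119 and 138 without those same libraries). Unadjusted exact permutation p was under 0.05 for 4 members, and for 0 in the single-end run and 1 with both runs averaged. It was so for 1 (Shank3) in the rest of the 3′ UTR and for 1 to 4 leaving out 1 library. Scaling over genes above 0.01, chosen after seeing the data, left 3, without Dlg4 (exact permutation p = 0.0571). Leaving out each library in these exact tests was also added after seeing the data. The cause was not tested.

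No pairing by replicate number was seen across genes. Deviations from group means correlated at -0.002 and 0.053 between dendrite and soma of the same number and at -0.016 and -0.002 between behaviours. Replicates differed so much that values near 0 cannot exclude a shared origin of libraries of the same number. With the replicate block no member was called. Upper-quartile scaling was not run, since the upper quartile of a library was 0. Low fragment numbers limit the soma values of Shank2, Shank3, Dlg3 and Dlgap3.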
